A study of Mus musculus with 13 samples.

Results

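The genes described here encode 10 proteins that antisense oligonucleotides (ASOs) meet in the liver, from the receptors that bind them at the cell surface to the nuclease that cuts their target. They are Asgr1, Asgr2, Stab1, Stab2, Msr1, Mrc1, M6pr, Igf2r, Anxa2 and Rnaseh1, taken by gene symbol from the deposited liver table, which lists all 10 among its 11779 genes. The study depleted the long non-coding RNA LL35, or Falcor, in mouse hepatocytes, and its 13 libraries are 6 from liver and 7 from AML12, a line of mouse hepatocytes that was not analysed here. Liver RNA came from 3 Balb/c mice given, by the labels, a mix of 5 ASOs against LL35 (Liver LL35 ASO) and from 3 Balb/c mice given an ASO against firefly luciferase (Liver Luc ASO), all 6 collected 5 days after injection into the tail vein. Every ASO in both groups carried N-acetylgalactosamine (GalNAc), and by the study's methods these were phosphorothioate gapmers with 2'-O-methoxyethyl wings. The dose of the LL35 mix was 150 mg/kg, which the labels give for each ASO and the study's methods for the mix as a whole. The labels give no dose for the control ASO, the study's list of GalNAc conjugates shows fewer ASOs against LL35 than the labels' mix, and the age of the mice was not given in the sources used here.

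The deposited table holds 1 level for each gene, the authors' mean normalized count over the compared liver libraries of both groups. It has no values for single mice, so a level has neither an error nor a test and the depth of each library is unknown. The authors' own comparison of the LL35 and Luc groups, which the same table holds, was not used here, and the groups are not set against each other in what follows. The levels describe livers that had all received a GalNAc-conjugated ASO, since livers without one are not among the liver samples. Mean normalized counts of the listed genes ran from 15.6 to 1217472 with a median of 235. Genes that are not listed have no level here, and the reason for their absence was not examined. Every median and percentile below is therefore among listed genes only, also where it is given for all genes. To compare genes of different length, each mean normalized count was divided by the summed length of the gene's exons, and the median level was then 51.5 per kilobase over the 11754 genes with a gene model.

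GalNAc sends an oligonucleotide to the hepatocyte, because the asialoglycoprotein receptor on its surface binds terminal galactose and GalNAc, takes the ligand in through clathrin-coated pits, lets go of it in the acid endosome and returns to the membrane. A phosphorothioate backbone also binds scavenger receptors, which in the liver sit mainly on sinusoidal endothelial cells and Kupffer cells, so the same molecule can enter cells that lack the asialoglycoprotein receptor. Most of what is taken up stays in endosomes and lysosomes, and the part that reaches the cytosol or the nucleus can pair with its target RNA, which RNase H1 then cuts. In whole liver, a lower level of a transcript from fewer cells of a type and one from less RNA in each cell cannot be told apart.

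Asgr1 and Asgr2, the subunits of the asialoglycoprotein receptor, had the highest levels of the 10 genes, and Anxa2 and Rnaseh1 the lowest. Asgr1 had 2092 mean normalized counts per kilobase and Rnaseh1 20.8, so the levels spanned 101-fold, or 61.9-fold by the undivided counts. The median level of the 10 genes was 197 per kilobase against 51.5 for all genes with a model, and 7 of the 10 lay above that median. The other 3 were Msr1, just under it, and Anxa2 and Rnaseh1. Msr1 passed above the median of all genes when its count was divided by the longest transcript or not divided by length. By the length-corrected level the order was Asgr1, Asgr2, Stab2, Mrc1, M6pr, Stab1, Igf2r, Msr1, Anxa2 and Rnaseh1. The wide steps in it were between Asgr2 and Stab2 (6.41-fold), Igf2r and Msr1 (2.49-fold) and Msr1 and Anxa2 (2.29-fold). By undivided counts, Asgr2 was only 1.15-fold above Stab2. The remaining neighbours differed by 1.02- to 1.44-fold, and with no spread between mice it is unknown whether any neighbouring genes differ beyond it.

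**Figure D1:**
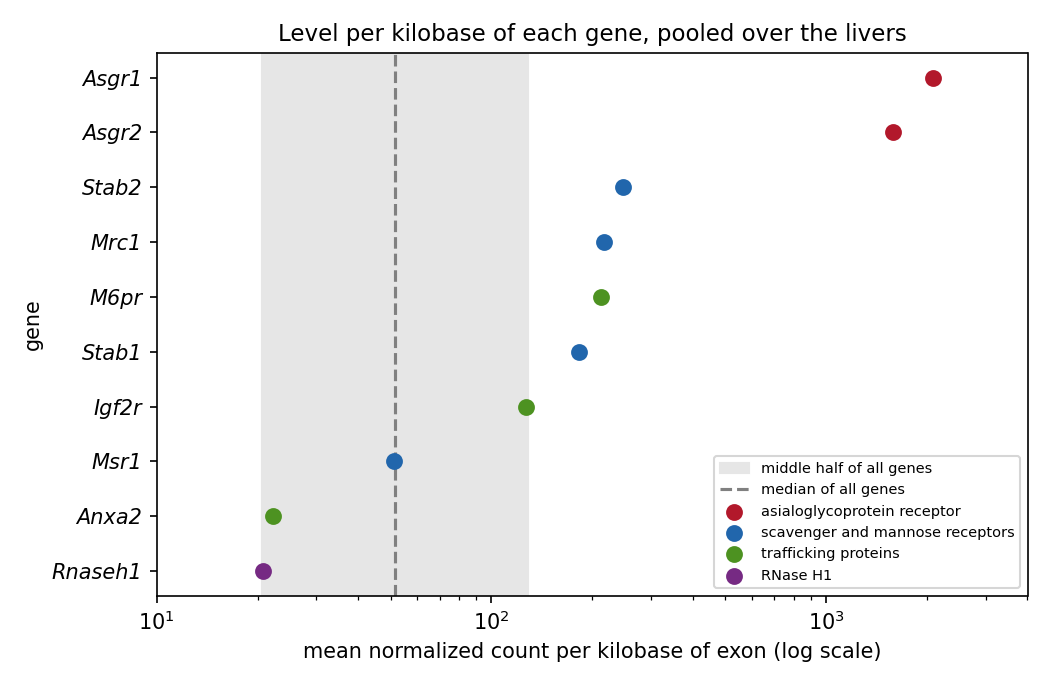
Each point is the level of 1 gene in mean normalized counts per kilobase of exon (x axis, log scale), pooled by the authors over 6 livers, with genes on the y axis in order of level and colours for their roles. The grey band runs from the lower to the upper quartile of all genes with a model (20.7 to 128 per kilobase) and the dashed line their median (51.5); Asgr1 (2092) and Asgr2 (1590) stand far to the right of it, and Anxa2 (22.3) and Rnaseh1 (20.8) lie at the left edge of the band.

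Asgr1 (ENSMUSG00000020884) encodes the major subunit of the asialoglycoprotein receptor, the chain that carries most of its ligand binding. Its mean normalized count was 3329 and its level 2092 per kilobase, above 98.3% of the genes with a model, at rank 203. Asgr2 (ENSMUSG00000040963), the minor subunit, came to 2503 mean normalized counts and 1590 per kilobase, above 97.7% of genes, at rank 265. The level of Asgr1 was thus 1.32-fold that of Asgr2 per kilobase. Their exons are 1591 and 1574 bases long in all, and the ratio of the undivided counts was almost the same at 1.33. Together they held 77.3% of the summed level per kilobase of the 10 genes but only 42.3% of their summed counts, since several of the others are long.

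Hepatocyte markers set the scale for this. Alb, the gene of serum albumin and the highest of the listed genes, had 519843 per kilobase, 248-fold the level of Asgr1. The lowest per kilobase of the 6 hepatocyte markers examined was Hnf4a, a transcription factor of hepatocyte identity, at 2550, slightly above Asgr1. By undivided counts Hnf4a, at 12312, lay further above Asgr1, at 3329. The lowest of these markers was then the serpin gene Serpina1c, at 5800, also above Asgr1. Of the other C-type lectins known to bind galactose or GalNAc, Clec4f, a Kupffer cell receptor, was listed at 791 per kilobase, and the macrophage lectins Clec10a and Mgl2 were not among the listed genes. Asgr1 was 2.65-fold and Asgr2 2.01-fold above Clec4f per kilobase in these pooled livers, and 1.70- and 1.28-fold by undivided counts. Among 15 other scavenger and endocytic receptors, all of them listed, the highest was Lrp1, a large receptor for lipoprotein remnants and many other ligands, at 1235 per kilobase, and the lowest was Scara5, a scavenger receptor that binds ferritin, at 3.37. Their median was 126 per kilobase, so both subunits of the asialoglycoprotein receptor lay above every one of the 15 per kilobase, Asgr1 by 1.69-fold over Lrp1. This turned without the division by length, where Lrp1, with a mean normalized count of 21886, and Egfr, the receptor of epidermal growth factor, with 4739, lay above both subunits, and the scavenger receptor gene Scarb1, with 2506, lay just above Asgr2.

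Of the scavenger receptors, the stabilins and the mannose receptor had similar levels, with the macrophage scavenger receptor lower. Stab2 (ENSMUSG00000035459), which clears hyaluronan and phosphorothioate oligonucleotides from blood in sinusoidal endothelium, reached 2171 mean normalized counts and 248 per kilobase, above 86.6% of genes. Stab1 (ENSMUSG00000042286), its relative on endothelium and macrophages, reached 1879 mean normalized counts and 183 per kilobase, above 81.9% of genes. The ratio of Stab2 to Stab1 was 1.36 per kilobase. Both genes are long, with 8757 and 10288 bases of exon and 69 exons in the transcript with the longest coding sequence of each, which encode 2559 and 2571 residues. Mrc1 (ENSMUSG00000026712), the mannose receptor of endothelium and macrophages, reached 1382 mean normalized counts and 217 per kilobase, above 84.7% of genes. The 3 genes therefore lay within 1.36-fold of each other.

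Msr1 (ENSMUSG00000025044), the class A scavenger receptor by which macrophages take up polyanions, had a mean normalized count of 323. At 51.0 per kilobase it lay above 49.8% of genes, and Mrc1 was 4.25-fold higher. Msr1 and Mrc1 have exons of nearly equal total length, 6344 and 6371 bases, so their undivided counts gave almost the same ratio, 4.27. The longest transcript of Msr1 has 3636 bases against 6344 of summed exon, a wider gap than in the other scavenger receptors here. Divided by the longest transcript, Mrc1 was 2.89-fold above Msr1.

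Markers of the cells that carry these receptors were listed too. Of 8 markers of sinusoidal endothelial cells all were listed, with a median of 126 per kilobase. They ran from Lyve1, a hyaluronan receptor, at 41.4 to Clec4g, a C-type lectin of these cells, at 289. Lyve1, Fcgr2b and the Kupffer cell marker Marco were also counted among the other endocytic receptors above, so these lists overlap. Per kilobase, Stab2, Stab1 and Mrc1 lay within the range of the 8 endothelial markers. By undivided counts, at 2171, 1879 and 1382, these receptor genes lay above each of the 8 markers, the highest of which had 1140. Clec4g was 1.17-fold above Stab2 per kilobase of exon and 1.87-fold with the longest transcript, whereas by undivided counts Stab2 was the higher, at 2171 against 712. Of 8 Kupffer cell and macrophage markers all were listed, with a median of 200 per kilobase, from Timd4, a receptor for phosphatidylserine, at 55.4 to Clec4f at 791. Msr1 lay under each of these 8 per kilobase, but by undivided counts it lay above Timd4, Cd68, Adgre1 and Marco, whose counts ran from 120 to 232. Clec4f was 15.5-fold above Msr1 per kilobase of exon, 8.89-fold with the longest transcript and 6.04-fold by undivided counts. All 6 stellate cell markers were listed as well, with a median of 67.9 per kilobase, from the muscle-type filament gene Des at 13.8 to the matrix proteoglycan gene Dcn at 265. Of the cholangiocyte markers, Spp1 and Sox9 were listed at 91.9 and 9.94 per kilobase, and Krt19, Krt7 and Epcam were not. Few markers of blood cells were listed. Cd3e was listed at 4.56 per kilobase and S100a8 and S100a9 at 33.1 and 35.9, whereas Cd8a, Nkg7, Klrb1c, Ly6g, Retnlg and the B cell genes Cd79a and Ms4a1 were not listed. Hepatocyte markers were thus the highest of the marker lists, and those of endothelial, Kupffer and stellate cells were listed in full. The labelled tissue is liver.

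**Figure D2:**
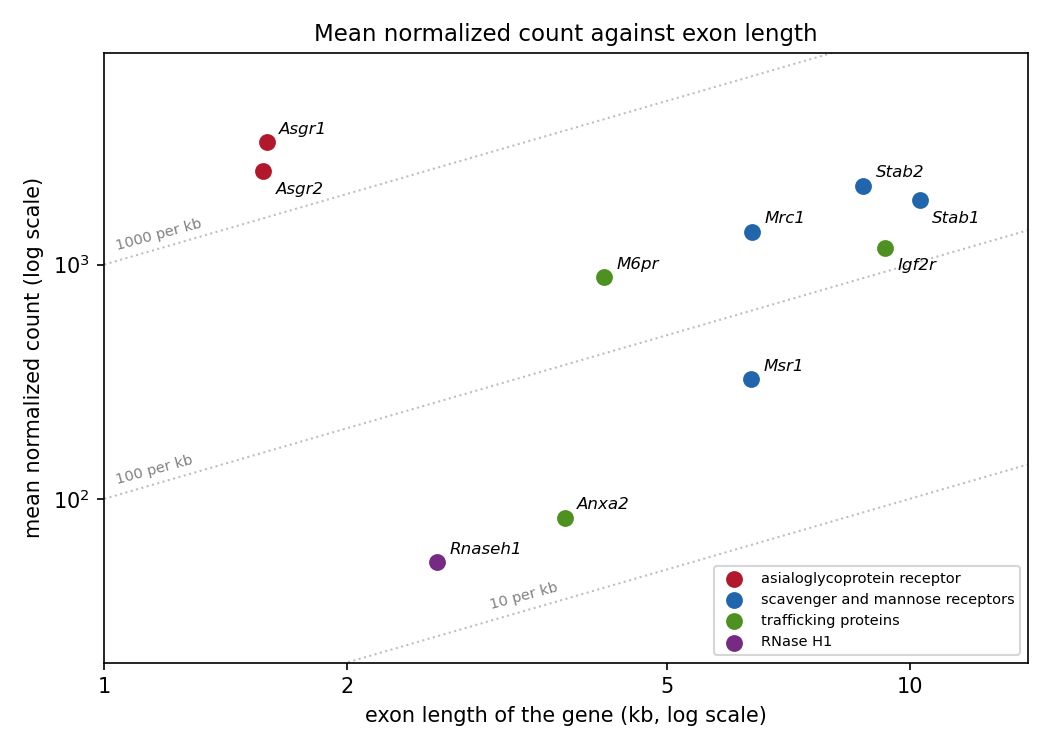
Each point is 1 of the 10 genes, with the summed exon length in kilobases on the x axis and the authors' mean normalized count over 6 livers on the y axis, both on log scales. Dotted lines join points of equal level per kilobase; Asgr1 and Stab2 have counts of 3329 and 2171, yet they lie on different sides of the line at 1000 per kilobase, since Stab2 has 8.76 kb of exon against 1.59 kb in Asgr1.

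The mannose 6-phosphate receptors carry newly made lysosomal enzymes from the Golgi to endosomes, and the small one has been linked to the release of ASOs from late endosomes. M6pr (ENSMUSG00000007458), the cation-dependent receptor, came to 884 mean normalized counts and 212 per kilobase, above 84.4% of genes. Igf2r (ENSMUSG00000023830), the large cation-independent receptor, which also binds insulin-like growth factor 2, came to 1182 mean normalized counts and 127 per kilobase, above 74.7% of genes. M6pr was thus 1.67-fold higher per kilobase, while the undivided count of Igf2r was 1.34-fold higher, because its exons add up to 9308 bases against 4170. The direction within this pair turned with the division by length. Of 10 genes for sorting by these receptors, all were listed, with a median of 71.0 per kilobase and 6 above the median of all genes. Vps26a, a subunit of the retromer that returns the receptors to the Golgi, was the highest at 170, and Gga2, an adaptor that packs them into vesicles, the lowest at 28.6. Per kilobase, M6pr lay above all 10, and Igf2r above each of them except Vps26a. By undivided counts, Igf2r lay above all 10, and Vps35, another retromer subunit, at 1095, lay above M6pr.

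Anxa2 (ENSMUSG00000032231) encodes annexin A2, a calcium-dependent protein of membranes that has been linked to the movement of phosphorothioate ASOs from early to late endosomes. Its mean normalized count was 83.1 and its level 22.3 per kilobase, above only 26.8% of the listed genes with a model. S100a10, its binding partner in a complex at the membrane, had 388 per kilobase, 17.4-fold more, or 5.65-fold more by undivided counts, since its exons span only 1212 bases. Of the other 7 annexins, Anxa1 at 23.0 per kilobase was near Anxa2 and Anxa3 at 13.6 was below it, while Anxa4, Anxa5, Anxa6, Anxa7 and Anxa11 lay between 85.9 and 374. Anxa6 was the highest annexin, 16.8-fold above Anxa2.

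Genes of the general machinery of uptake and endosomal transport were listed without exception. The 12 genes examined for clathrin, the AP-2 adaptor and their partners all lay above the median of all genes, with a median of 147 per kilobase. They ran from Dab2, an endocytic cargo adaptor, at 56.7 to Cltc, the clathrin heavy chain, at 584. The 16 genes examined for endosome trafficking include those of Rab proteins, ESCRT subunits and lysosomal membrane proteins. All 16 lay above the median of all genes as well, with a median of 132 per kilobase, and 14 of the 16 did by undivided counts. Per kilobase, Lamp1, a lysosomal membrane glycoprotein, was the highest of these at 1837. The golgin gene Gcc2, whose product works with M6pr in transport to the Golgi, was the lowest at 73.5. By undivided counts, Lamp2 was the highest, at 6269, and Vps4a the lowest, at 197. M6pr was 2.88-fold above Gcc2, or 1.25-fold by undivided counts. Rab7, the Rab protein of late endosomes, was at 591 per kilobase, 26.5-fold above Anxa2.

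Rnaseh1 (ENSMUSG00000020630), which encodes the enzyme that cuts the RNA strand of an RNA:DNA hybrid and so carries out gapmer activity, had the lowest level of the 10 genes. Its mean normalized count was 53.8, above 17.0% of the 11779 listed genes, and its level of 20.8 per kilobase was above 25.1% of those with a model. Anxa2, next in the order, was 1.07-fold above it per kilobase. RNase H2, the other RNase H of mammalian cells, removes single ribonucleotides from DNA and consists of a catalytic and 2 accessory subunits. Rnaseh2a, the catalytic subunit, was at 29.3 per kilobase, Rnaseh2b at 9.69 and Rnaseh2c at 68.3. Per kilobase, Rnaseh1 lay within the range of the RNase H2 subunits, 2.15-fold above Rnaseh2b and 1.41-fold below Rnaseh2a. By undivided counts it lay under all 3 of them, at 53.8 against 60.5 for Rnaseh2b, 103 for Rnaseh2a and 117 for Rnaseh2c.

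Genes of intracellular proteins known to bind phosphorothioate ASOs, such as chaperones and nuclear RNA-binding proteins, mostly had higher RNA levels than Rnaseh1. So did most listed genes, since Rnaseh1 lay above only 25.1% of those with a model. No protein levels were used here. Of 17 such genes, counted with the nuclear exonuclease gene Xrn2, all were listed and 13 lay above the median of all genes, with a median of 199 per kilobase. Hsp90ab1, a cytosolic chaperone, was the highest at 3933, 189-fold above Rnaseh1. Ilf2, a subunit of a double-stranded RNA-binding complex, was the lowest at 18.8 and the only one of the 17 under Rnaseh1 per kilobase. By undivided counts it was the higher, at 161 against 53.8. Their levels are shown beside the other lists in the plot of levels by gene list.

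**Figure D3:**
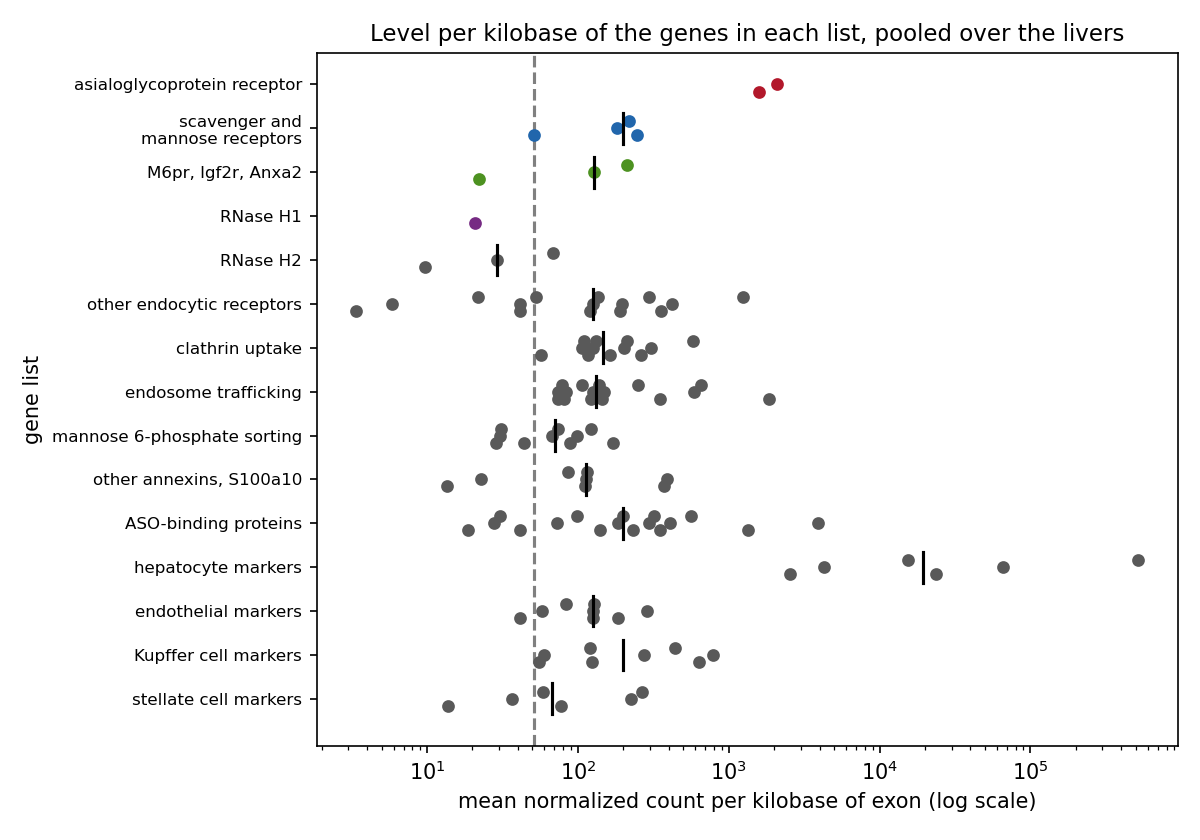
Each point is a gene, with its level in mean normalized counts per kilobase of exon on the x axis (log scale, the authors' mean over 6 livers) and the gene lists on the y axis; the coloured rows hold the 10 genes described, a black bar is the median of a list with 3 or more genes, and the dashed line is the median of all genes with a model (51.5). Per kilobase, the 2 subunits of the asialoglycoprotein receptor lie right of every other endocytic receptor and RNase H1 (20.8) lies among the RNase H2 subunits (9.69 to 68.3), and neither held for undivided counts.

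The 10 genes differ widely in exon length and in the base composition of their longest transcript. Exon length ran from 1574 bases in Asgr2, longer than in 7.37% of genes with a model, to 10288 bases in Stab1, longer than in 90.5% of them. The longest coding sequence of Asgr1 encodes 284 residues, that of M6pr 278 and that of Rnaseh1 285. The transcripts that hold these sequences have 8 exons each, although the levels of these genes differed widely. Guanine and cytosine made up 38.4% of the longest transcript of Msr1, a lower share than in all but 2.46% of genes, and 57.3% of that of Stab1, with a median of 49.4% over all genes. Reads can also be lost or shared where genes overlap. In the annotation used, no exon of the 10 genes overlaps an exon of another gene on the same strand, and 3 genes overlap one on the opposite strand, Anxa2 over 2.63% of its exon length, Stab2 over 1.61% and Stab1 over 1.09%. Whether the authors counted reads by strand is not given in the sources used here.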

How the data were processed

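RNA was extracted from liver with TRIzol and depleted of rRNA, and directional libraries were sequenced as single reads. According to the methods and the submitters' processing notes, the authors aligned reads with STAR 2.5.3a, counted them on Ensembl genes, and normalized counts by the RLE method of DESeq2. The genome build is not given in the sources used here, so no positions are printed. The deposited mean normalized count is a signal pooled by the authors over both liver groups. The deposited table also holds the authors' log2 fold changes, standard errors, Wald statistics and p-values, which were not used, so no groups were compared. Without values for single libraries, depth and precision are unknown.

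Each value was divided by the union of exons in GENCODE M21 (GRCm38), matched by Ensembl identifier for 11754 of 11779 genes, of which 11525 had the same symbol. Steps were tested on simulated data. Python 3.11.15, pandas 2.3.3, numpy 2.4.6, scipy 1.17.1 and matplotlib 3.10.9 were used. Named were all 10 genes, and of each list the highest and lowest gene, and every gene of a list of 5 or fewer. Rab7 and the annexins between the highest and lowest were named after their values were seen. So were genes given only for a ratio, for an undivided count or as shared between lists. The 10 genes and the lists were chosen with earlier results of these data known. Alternatives changed the length, the division by it and the genes compared. Protein and ASO sequences, and 2 genes first put on the lists, are not reported here.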

Additional observations from a re-analysis of the deposited data

How the results depend on the processing

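Asgr1 and Asgr2 stayed first and second, and Msr1, Anxa2 and Rnaseh1 last, in that order, with the longest transcript and with no division by length. The other alternatives changed only the genes compared, so the order of the 10 genes could not change under them. Between 7 and 8 of the 10 genes lay above the median of all genes. The median of the 10 genes' percentiles was 83.2 by the level per kilobase of exon, 82.0 with the length of the longest transcript, 88.3 with no division by length, 80.2 among the 9905 genes with 50 mean normalized counts or more, and 83.2 among the 11335 genes with a RefSeq protein. The shifts follow from the other length or the other set of genes. The ratio of Igf2r to M6pr was 0.60 per kilobase, 0.45 with the longest transcript and 1.34 with no division by length, the one ratio of 5 that turned. Stab2, Stab1, Mrc1, M6pr and Igf2r changed places among themselves. No paired analysis was possible because the table holds no values for single libraries, and for the same reason no library could be left out. The alternative of a coding length from RefSeq proteins was not run.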
